A study of Mus musculus with 12 samples.

Results

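The genes described here are 38 genes of DNA repair and of the response to stalled replication, chosen by name from the 27487 genes of the deposited expression table. They were read in 12 RNA-seq libraries of BV2 cells, an immortalised mouse microglial line, in 3 groups of 4 libraries. CTR held BV2 cells cultured alone, Neu held BV2 cells cultured together with primary mouse neutrophils, and in Neu+NETS the added neutrophils had been treated with phorbol 12-myristate 13-acetate (PMA), which drives the release of neutrophil extracellular traps. The design therefore asks how neutrophils, and neutrophils set to release traps, alter the RNA of microglia; no group received PMA without neutrophils or traps without cells. All 38 genes passed the filter on low counts, as did 16387 genes of the table.

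Cells that copy their genome meet broken strands, crosslinks and stalled forks, and the 38 genes encode parts of the machinery that handles them. Homologous recombination repairs a broken duplex from the sister chromatid: nucleases cut back the ends, replication protein A (RPA) coats the exposed strand, and BRCA proteins take part in the steps that follow. The Fanconi anemia core complex ubiquitinates the FANCD2 and FANCI pair at crosslinks, and the kinases ATM and ATR signal breaks and stalled forks through CHK2 and CHK1. Transcripts of many of these genes are known to rise when cells enter S phase, so in a dividing line such as BV2 their level in bulk RNA is known to depend on how many cells are replicating.

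Levels are given as FPKM, a scale that corrects fragments for transcript length and library size, with the SD over 4 libraries. Fold changes, their SE on the log2 scale and adjusted p-values come from the deposited estimated counts by edgeR's quasi-likelihood test, adjusted by Benjamini-Hochberg over all 16387 genes, and a gene with an adjusted p under 0.05 is said to have risen or fallen. Library totals ran from 53512190 to 68316549 estimated counts, and the lowest count of any of the 38 genes in a library was 289. Nothing in the labels says that the 4 libraries of a group came from separate cultures, and the spread that p-values are set against may therefore be technical. The labels name both retina and the BV2 line. Of the microglial and macrophage markers, Csf1r stood at 91.3 FPKM and Spi1 at 96.7 FPKM in CTR, while P2ry12 (0.658 FPKM) and Cx3cr1 (0.718 FPKM), which mark microglia in tissue, were near 0. Of the 4 retinal neuron and glia genes in the table, Gfap stood at 0.0116 FPKM in CTR, Pde6b at 0.807, Pou4f1 at 1.53 and Glul, which many cell types express, at 24.0 FPKM. In bulk RNA, fewer cells of a kind and less RNA per cell cannot be told apart.

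BV2 cells cultured with untreated neutrophils had less RNA of nearly the whole set. In Neu, 33 of the 38 genes fell against CTR, where 27.9% of all genes tested fell, and 1 gene, Atr, rose, where 26.1% of all genes rose. The median change of the 38 genes was -0.63 on the log2 scale, beside 0.02 for all genes tested, and 20 of them fell by at least 1.5-fold, as did 9.22% of all genes. All 4 Neu libraries lay below all 4 CTR libraries for 33 of the 38 genes, which held for 29.0% of all genes. None of the 38 rose by at least 1.5-fold or lay wholly above CTR, as 12.3% and 22.5% of all genes did. Among the 33 genes that fell, the change ran from 1.08-fold (Rad50) to 2.97-fold (Fanca), with a median of 1.59-fold.

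With PMA-stimulated neutrophils the same set stood near or somewhat above the level of BV2 cells alone. In Neu+NETS, 14 of the 38 genes rose against CTR and 7 fell, where 21.6% of all genes rose and 23.7% fell. The median change of the 38 genes was 0.10 on the log2 scale, beside 0.00021 for all genes, and 1 of them (Fancm) rose by at least 1.5-fold, as did 3.84% of all genes, while 0 fell by that much, as did 9.90%. All 4 Neu+NETS libraries lay above CTR for 16 of the genes and below it for 4, beside 23.7% and 18.4% of all genes. Compared directly with Neu, 32 of the 38 genes were higher in Neu+NETS and 1 (Fancg) was lower, where 29.4% of all genes were higher and 33.1% lower. In that direct comparison the median change was 0.64 on the log2 scale, beside -0.05 for all genes, and 21 of the 38 were higher by at least 1.5-fold, as were 13.0% of all genes, and 0 were lower by that much, as were 19.9%. The Neu+NETS libraries lay wholly above Neu for 33 of the genes and wholly below for 0, beside 32.6% and 26.9% of all genes. Both comparisons with CTR share the CTR libraries, and both with Neu share the Neu libraries, so their values are set side by side and not counted as separate evidence.

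**Figure D1:**
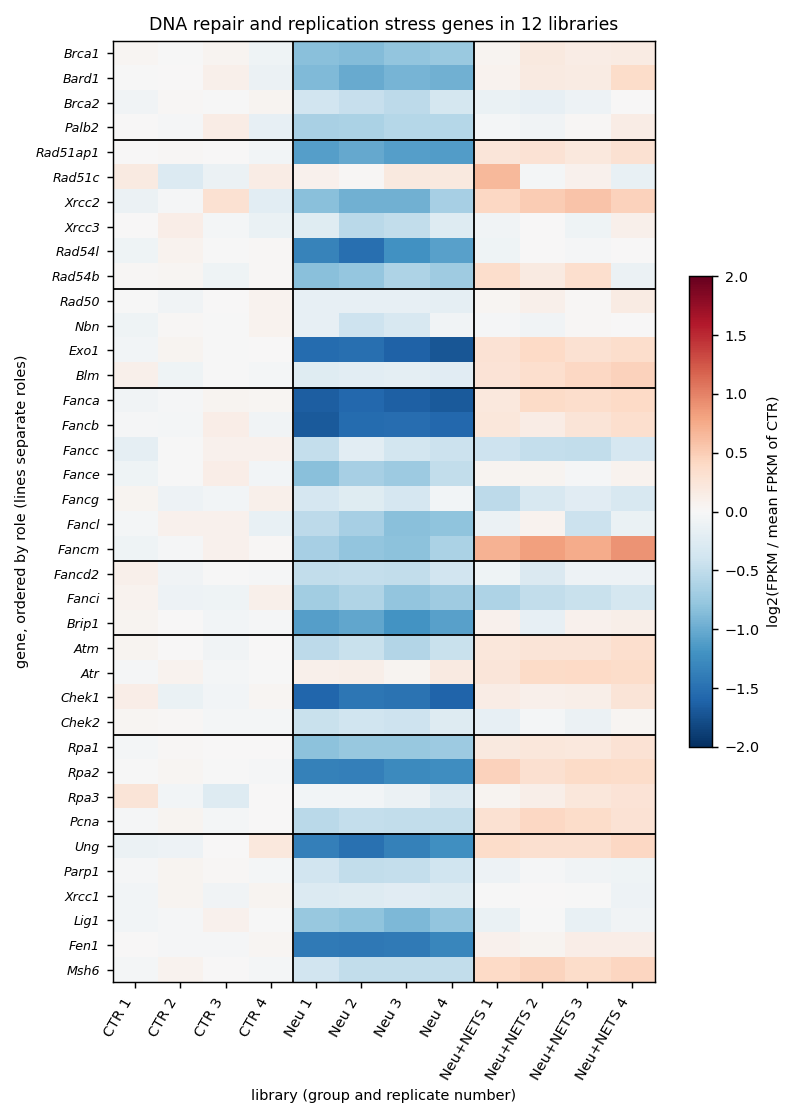
Level of each of the 38 genes (rows, ordered by role, with lines between the 8 roles) in each of the 12 libraries (columns), as log2 of its FPKM over the mean FPKM in CTR; blue is below and red above the CTR mean. The 4 Neu columns are blue in most rows, darkest for Fanca, Fancb, Exo1 and Chek1, and the 4 Neu+NETS columns are pale red or near white except in a few rows such as Fanci, Fancc and Fancg.

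The 38 genes together took a small share of each library, which differed between the groups. Their share of all estimated counts was 0.296% to 0.302% in the CTR libraries, 0.194% to 0.196% in the Neu libraries and 0.331% to 0.341% in the Neu+NETS libraries, and the 3 groups did not overlap. In CTR, 7 of the genes stood above 20 FPKM, 21 between 5 and 20 FPKM and 10 below 5 FPKM. Pcna was the highest at 164 FPKM and Rad51c the lowest at 1.18 FPKM.

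Because so many of the genes moved together, their promoters were searched for letters bound by factors of the cell cycle. RefSeq promoter windows (mouse build GRCm38.p6, 250 bases before to 50 bases after a transcript start, 300 bases in all) were held for 32 of the 38 genes, in 37 windows. The E2F letters searched were TTTCCCGC, TTTGGCGC, TTTCGCGC and TTTGCCGC, on both strands. They stood in 8 of the 37 windows (21.62%), those of Bard1, Brca2, Chek2, Fancg, Lig1, Msh6 and Rad51c, against 744 of 32851 windows of the whole table (2.26%) and 15 of 118 windows (12.71%) of other repair genes. Shown here are a gene that fell in Neu and had no call in Neu+NETS against CTR (Bard1), a gene that fell and rose (Msh6), a gene that did neither although its window holds the letters (Rad51c), and the gene with the deepest fall (Fanca), whose window holds none of them. Capitals mark the E2F letters; each sequence reads 5′ to 3′ on the strand of its gene.
Bard1, chr1:71102923-71103222, minus strand: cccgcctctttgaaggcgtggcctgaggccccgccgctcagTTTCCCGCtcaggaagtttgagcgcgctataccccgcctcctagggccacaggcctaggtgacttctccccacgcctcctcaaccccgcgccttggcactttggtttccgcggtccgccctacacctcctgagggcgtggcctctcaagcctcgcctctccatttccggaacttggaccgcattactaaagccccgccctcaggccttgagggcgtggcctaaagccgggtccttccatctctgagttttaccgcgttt
Msh6, chr17:87974800-87975099, plus strand: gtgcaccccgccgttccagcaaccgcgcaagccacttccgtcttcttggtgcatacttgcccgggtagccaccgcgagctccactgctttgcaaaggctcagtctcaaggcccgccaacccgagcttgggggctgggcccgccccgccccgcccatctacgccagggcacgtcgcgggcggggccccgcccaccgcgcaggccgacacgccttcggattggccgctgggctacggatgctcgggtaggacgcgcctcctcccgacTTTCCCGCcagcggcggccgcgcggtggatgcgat
Rad51c, chr11:87404905-87405204, minus strand: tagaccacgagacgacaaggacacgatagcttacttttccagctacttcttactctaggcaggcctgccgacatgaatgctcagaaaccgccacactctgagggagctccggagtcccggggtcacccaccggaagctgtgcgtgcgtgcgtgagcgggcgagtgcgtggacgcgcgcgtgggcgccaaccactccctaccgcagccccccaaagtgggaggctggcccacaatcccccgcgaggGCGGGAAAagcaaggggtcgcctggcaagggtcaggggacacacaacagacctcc
Fanca, chr8:123318527-123318826, minus strand: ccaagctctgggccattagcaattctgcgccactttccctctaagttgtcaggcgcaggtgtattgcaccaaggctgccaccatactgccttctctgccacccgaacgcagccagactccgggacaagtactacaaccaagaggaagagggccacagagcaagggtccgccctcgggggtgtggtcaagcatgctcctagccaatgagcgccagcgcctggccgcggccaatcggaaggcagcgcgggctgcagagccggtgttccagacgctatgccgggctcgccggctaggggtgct
The match lies 209 bases before the start in Bard1 and from base 16 after the start in Msh6, both on the gene's own strand. In Rad51c the letters TTTCCCGC lie on the opposite strand and so read GCGGGAAA here, running from 5 bases before the start across it. Another Rad51c window, not shown, holds TTTCGCGC from base 12 after its start. A match is a description of the letters and not of binding.

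Other letters were searched in the same windows. The CCAAT box (CCAAT, both strands), read by the factor NF-Y, stood in 21 of the 37 windows (56.76%) against 37.41% of all windows and 54.24% of the windows of other repair genes; the Fanca window holds 2 of them, 50 and 23 bases before the start. The cell cycle homology letters TTTGAA or TTCGAA stood in 3 of the 37 windows (8.11%) against 19.23% and, for other repair genes, 16.95%. The E-box CACGTG stood in 4 windows (10.81%) against 7.15% and 14.41%, and ACGTG, which lies within CACGTG and is the core read by hypoxia-inducible factors, in 11 (29.73%) against 19.62% and 34.75%. Fancb, Chek1, Fen1, Rpa2 and Ung, which all fell by more than 2-fold in Neu, had none of the E2F letters in their windows.

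The BRCA complex acts at resected ends, and all 4 of its genes fell in Neu. Brca1 (ENSMUSG00000017146, GRCm39 chr11:101379590-101442781, minus strand), a ubiquitin ligase and scaffold of recombination, stood at 12.6, 12.2, 12.7 and 11.5 FPKM in the CTR libraries, 6.88, 6.74, 7.08 and 7.34 FPKM in Neu and 12.8, 13.9, 13.6 and 13.8 FPKM in Neu+NETS. The Neu libraries lay below all others, and the Neu+NETS libraries lay just above CTR without overlap. Brca1 fell 1.68-fold in Neu (log2 -0.75 ± 0.039 SE, adjusted p = 4.7e-11), did not pass the test in Neu+NETS against CTR (log2 0.09 ± 0.038, adjusted p = 0.061) and was 1.79-fold higher in Neu+NETS than in Neu (adjusted p = 5.4e-12). That Neu+NETS difference from CTR passed the test when CTR 1 (log2 0.11), CTR 3 (0.11) or Neu+NETS 1 (0.12) was left out. It also passed in 8 of the 12 other settings, those that do not leave out a single library, such as DESeq2 (0.12).

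Bard1 (ENSMUSG00000026196), the partner without which BRCA1 is unstable, kept the same order of groups. It stood at 6.02, 6.09, 6.53 and 5.59 FPKM in CTR, 3.28, 3.01, 3.17 and 3.10 FPKM in Neu and 6.36, 6.89, 6.76 and 7.85 FPKM in Neu+NETS. The Neu libraries were again apart and below, and Neu+NETS overlapped CTR. Bard1 fell 1.86-fold in Neu (log2 -0.89 ± 0.067, adjusted p = 4.6e-09), and its Neu+NETS value against CTR was log2 0.15 ± 0.065 (adjusted p = 0.071), which passed without CTR 3 (0.19) or Neu+NETS 1 (0.19) and in 6 of the 12 other settings. Palb2, which joins BRCA1 to BRCA2, stood at 2.63, 2.58, 2.88 and 2.33 FPKM in CTR, 1.67, 1.67, 1.76 and 1.75 FPKM in Neu and 2.54, 2.48, 2.64 and 2.87 FPKM in Neu+NETS, a fall of 1.46-fold in Neu (adjusted p = 7.3e-06) with Neu+NETS overlapping CTR.

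Brca2, a mediator of recombination, had the smallest fall of the 4 in Neu. Its level was 3.45, 3.68, 3.63 and 3.78 FPKM in CTR, 2.79, 2.65, 2.52 and 2.84 FPKM in Neu and 3.33, 3.25, 3.39 and 3.67 FPKM in Neu+NETS. It fell 1.3-fold in Neu (adjusted p = 3.5e-06). In Neu+NETS it was lower than CTR by log2 -0.14 ± 0.048 (adjusted p = 0.023) with overlapping libraries, and that call was lost in 6 of 12 other settings, such as DESeq2 (-0.11), and without CTR 2 (-0.13), CTR 4 (-0.12), Neu+NETS 1 (-0.13) or Neu+NETS 2 (-0.12).

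Of the 6 genes Rad54l, Rad51ap1, Xrcc2, Xrcc3, Rad54b and Rad51c, which act in strand exchange, 5 fell in Neu. Rad54l, a motor protein of strand exchange, showed the deepest fall of them. It stood at 7.25, 8.10, 7.69 and 7.86 FPKM in CTR, 3.04, 2.71, 3.35 and 3.63 FPKM in Neu and 7.30, 7.79, 7.62 and 7.79 FPKM in Neu+NETS. Neu lay below both other groups, whose libraries overlapped. The fall was 2.33-fold in Neu (log2 -1.22 ± 0.067, adjusted p = 9e-11), with log2 -0.07 ± 0.065 in Neu+NETS against CTR (adjusted p = 0.44). The gene overlaps Lrrc41, which stood at 25.2 FPKM on average, and with the strand setting not given, reads shared by the pair cannot be assigned.

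Rad51ap1, which stimulates strand pairing, went below CTR in Neu and above it in Neu+NETS. It stood at 9.50, 9.57, 9.49 and 9.09 FPKM in CTR, 4.39, 4.64, 4.37 and 4.33 FPKM in Neu and 11.2, 11.5, 10.9 and 11.6 FPKM in Neu+NETS, with no overlap between any pair of groups. It fell 2.04-fold in Neu (log2 -1.03 ± 0.043, adjusted p = 3.1e-12) and rose 1.16-fold in Neu+NETS (log2 0.21 ± 0.042, adjusted p = 0.00047). Xrcc2, which acts in homologous recombination, stood at 3.01, 3.22, 4.08 and 2.83 FPKM in CTR, 1.83, 1.68, 1.69 and 2.08 FPKM in Neu and 4.4, 4.65, 4.88 and 4.52 FPKM in Neu+NETS, again with 3 separate ranges. Xrcc2 fell 1.73-fold in Neu (adjusted p = 4.3e-06) and rose 1.36-fold in Neu+NETS (log2 0.44 ± 0.101, adjusted p = 0.0018).

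The remaining genes of this role moved less in Neu than Rad54l. Xrcc3 fell 1.25-fold in Neu (adjusted p = 0.0016), from 10.9 ± 0.86 to 8.35 ± 0.871 FPKM (SD, n = 4, edgeR), and it overlaps Klc1 on the opposite strand (25.3 FPKM). Rad54b fell 1.59-fold in Neu, from 2.22 ± 0.0901 to 1.33 ± 0.09 FPKM (SD, n = 4, edgeR adjusted p = 2.7e-05). Rad51c, which acts in homologous recombination, passed the test in no comparison: it stood at 1.34, 0.978, 1.09 and 1.31 FPKM in CTR, 1.25, 1.2, 1.35 and 1.35 FPKM in Neu and 1.84, 1.15, 1.25 and 1.07 FPKM in Neu+NETS. All 3 groups overlapped, and the Neu value was log2 0.18 ± 0.161 (adjusted p = 0.36).

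Genes that cut back and unwind ends were uneven. Exo1, the exonuclease that digests long tracts behind a break, stood at 6.18, 6.64, 6.35 and 6.46 FPKM in CTR, 2.21, 2.26, 2.08 and 1.96 FPKM in Neu and 7.82, 8.44, 7.95 and 8.22 FPKM in Neu+NETS. The 3 groups were fully apart. Exo1 fell 2.89-fold in Neu (log2 -1.53 ± 0.051, adjusted p = 1.7e-13), rose 1.22-fold in Neu+NETS (log2 0.29 ± 0.048, adjusted p = 9.7e-05) and was 3.53-fold higher in Neu+NETS than in Neu (adjusted p = 7.6e-15).

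Blm, the helicase that undoes recombination intermediates, stood at 8.04, 7.06, 7.43 and 7.28 FPKM in CTR, 6.29, 6.44, 6.52 and 6.39 FPKM in Neu and 9.04, 9.45, 9.93 and 10.2 FPKM in Neu+NETS. It fell 1.12-fold in Neu (adjusted p = 0.0051) and rose 1.25-fold in Neu+NETS (log2 0.32 ± 0.044, adjusted p = 1.1e-05). Each of its 3 ranges was apart.

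Rad50 and Nbn encode subunits of the MRN complex, which binds broken ends first. Rad50 stood at 16.2, 15.4, 16.4 and 17.1 FPKM in CTR, 14.5, 14.5, 14.6 and 14.4 FPKM in Neu and 16.7, 17.4, 16.6 and 18.2 FPKM in Neu+NETS, a fall of 1.08-fold in Neu (log2 -0.11 ± 0.035, adjusted p = 0.013). That call was lost without CTR 4 (log2 -0.09), under upper-quartile scaling (-0.07) and with only genes of a mean count of at least 100 (-0.08). Nbn did not pass edgeR's test in any comparison: it stood at 5.86 ± 0.274 FPKM in CTR, 4.97 ± 0.528 in Neu and 5.79 ± 0.18 in Neu+NETS (SD, n = 4), with an edgeR adjusted p = 0.065 in Neu; the Neu value passed without Neu 4 (log2 -0.23) and in 4 of the 12 other settings.

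The Fanconi core complex held the largest fall in Neu and the largest rise in Neu+NETS. Fanca (ENSMUSG00000032815, GRCm39 chr8:123995039-124045315, minus strand), a scaffold subunit of the core, stood at 7.78, 7.99, 8.45 and 8.40 FPKM in CTR, 2.61, 2.75, 2.64 and 2.53 FPKM in Neu and 9.44, 10.6, 10.4 and 10.8 FPKM in Neu+NETS. The groups did not overlap, and the highest Neu library was far below the lowest CTR library. Fanca fell 2.97-fold in Neu (log2 -1.57 ± 0.047, adjusted p = 5.7e-14), rose 1.22-fold in Neu+NETS (log2 0.29 ± 0.045, adjusted p = 4.2e-05) and differed 3.63-fold between Neu+NETS and Neu (adjusted p = 2.3e-15). It overlaps Zfp276 (5.43 FPKM on average).

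Fancb, part of the catalytic module of the core, was close behind. It stood at 6.30, 6.21, 7.04 and 6.11 FPKM in CTR, 1.99, 2.21, 2.23 and 2.15 FPKM in Neu and 7.53, 7.09, 7.66 and 8.11 FPKM in Neu+NETS. It fell 2.87-fold in Neu (log2 -1.52 ± 0.075, adjusted p = 2.2e-11). Its rise in Neu+NETS was small (log2 0.20 ± 0.071, adjusted p = 0.034), and the call was lost without CTR 1 (0.19), CTR 2 (0.18), CTR 4 (0.17), Neu+NETS 1 (0.20), Neu+NETS 3 (0.19) or Neu+NETS 4 (0.17).

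Fancm, the translocase that brings the core to blocked forks, had the largest rise over CTR. Its level was 3.33, 3.46, 3.73 and 3.60 FPKM in CTR, 2.24, 2.04, 2.00 and 2.27 FPKM in Neu and 5.68, 6.25, 5.88 and 6.6 FPKM in Neu+NETS. All 3 groups were apart. Fancm fell 1.59-fold in Neu (log2 -0.67 ± 0.055, adjusted p = 1.9e-08) and rose 1.67-fold in Neu+NETS (log2 0.74 ± 0.054, adjusted p = 7.6e-09), the only member of the 38 to rise past 1.5-fold there.

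Fancc and Fancg, of the same core, fell with stimulated neutrophils. Fancc stood at 1.95, 2.20, 2.33 and 2.33 FPKM in CTR, 1.58, 1.91, 1.71 and 1.63 FPKM in Neu and 1.66, 1.59, 1.57 and 1.74 FPKM in Neu+NETS. Both co-cultures lay below CTR and overlapped each other; Fancc fell 1.24-fold in Neu (adjusted p = 0.0034) and 1.39-fold in Neu+NETS (log2 -0.48 ± 0.080, adjusted p = 0.00011), and it overlaps Aopep (3.28 FPKM). Fancg stood at 4.03, 3.62, 3.71 and 4.13 FPKM in CTR, 3.06, 3.26, 3.06 and 3.73 FPKM in Neu and 2.69, 3.10, 3.30 and 3.10 FPKM in Neu+NETS.

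Fancg thus fell 1.31-fold in Neu+NETS (log2 -0.39 ± 0.086, adjusted p = 0.0012), with all libraries below CTR. In Neu its value was log2 -0.18 ± 0.086 (adjusted p = 0.083), which passed without Neu 4 (-0.24) and with the 3 limma fits. Its difference between Neu+NETS and Neu (log2 -0.21 ± 0.086, adjusted p = 0.046) was lost in 17 of the 24 alternatives, with DESeq2 (-0.20) and without CTR 1 (-0.20), CTR 3 (-0.21), CTR 4 (-0.21), Neu 2 (-0.21), Neu 4 (-0.15), Neu+NETS 1 (-0.15), Neu+NETS 2 (-0.21) or Neu+NETS 4 (-0.21) among them. Fance fell 1.54-fold in Neu, from 7.29 ± 0.489 to 4.56 ± 0.455 FPKM (SD, n = 4, edgeR adjusted p = 1.1e-06), and stood at 7.5 ± 0.214 FPKM in Neu+NETS. Fancl, the ubiquitin ligase of the core, fell 1.56-fold in Neu, from 2.72 ± 0.21 to 1.68 ± 0.163 FPKM (SD, n = 4, edgeR adjusted p = 0.00014), and it overlaps Vrk2 (3.32 FPKM).

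The pair that the core complex modifies fell in both co-cultures. Fanci stood at 8.37, 7.37, 7.5 and 8.51 FPKM in CTR, 4.93, 5.22, 4.59 and 4.86 FPKM in Neu and 5.17, 5.65, 5.83 and 6.23 FPKM in Neu+NETS. Every co-culture library lay below every CTR library. Fanci fell 1.56-fold in Neu (log2 -0.64 ± 0.063, adjusted p = 1.7e-07) and 1.43-fold in Neu+NETS (log2 -0.52 ± 0.063, adjusted p = 3.1e-06), the largest fall of the 38 genes there, and its difference between the co-cultures was log2 0.12 ± 0.063 (adjusted p = 0.12), which passed without Neu+NETS 1 (0.16) and in 5 of the 12 other settings. It overlaps Polg (7.94 FPKM).

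Fancd2, its partner in the clamp, stood at 9.10, 8.06, 8.41 and 8.37 FPKM in CTR, 6.06, 6.12, 6.06 and 6.53 FPKM in Neu and 8.04, 6.91, 7.89 and 7.91 FPKM in Neu+NETS. It fell 1.32-fold in Neu (adjusted p = 3.4e-06) and 1.14-fold in Neu+NETS (log2 -0.19 ± 0.050, adjusted p = 0.005). Brip1, the helicase that binds BRCA1, was low in Neu alone: it stood at 6.45, 6.26, 6 and 6.09 FPKM in CTR, 2.90, 3.00, 2.71 and 2.92 FPKM in Neu and 6.62, 5.55, 6.61 and 6.72 FPKM in Neu+NETS. Brip1 fell 2.07-fold in Neu (log2 -1.05 ± 0.061, adjusted p = 1.9e-10) and overlapped CTR in Neu+NETS (log2 -0.01 ± 0.059, adjusted p = 0.92).

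**Figure D2:**
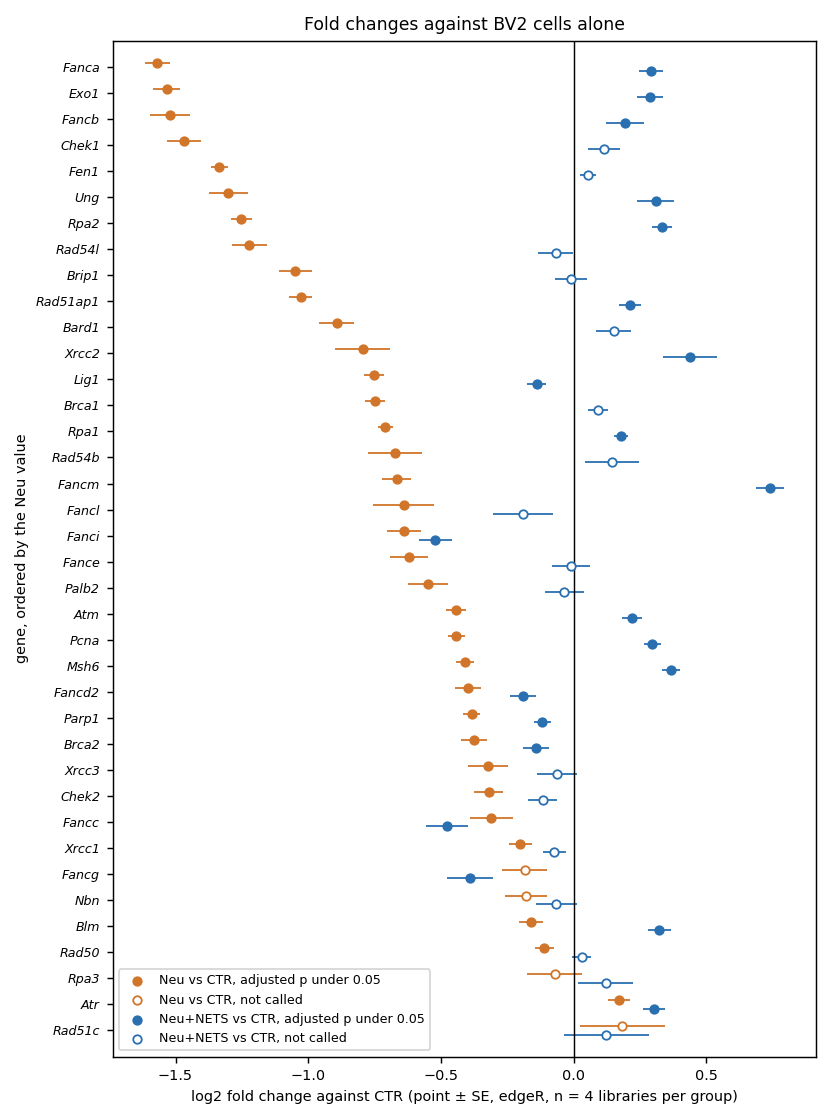
log2 fold change of each of the 38 genes against CTR (horizontal axis) with its SE, orange for Neu and blue for Neu+NETS, filled where the adjusted p is under 0.05, ordered by the Neu value. The orange points run from -1.57 (Fanca) to 0.18 (Rad51c), while the blue points stay between -0.52 (Fanci) and 0.74 (Fancm).

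Of the 4 checkpoint kinases, 3 fell in Neu and Atr rose, and all 4 were higher in Neu+NETS than in Neu. Chek1 (ENSMUSG00000032113, GRCm39 chr9:36619778-36638361, minus strand), which restrains origin firing and mitosis when forks stall, stood at 9.88, 8.25, 8.68 and 9.29 FPKM in CTR, 3.00, 3.30, 3.24 and 2.97 FPKM in Neu and 10.1, 9.73, 9.81 and 10.8 FPKM in Neu+NETS. Neu was far below the others, which overlapped. Chek1 fell 2.77-fold in Neu (log2 -1.47 ± 0.063, adjusted p = 4.3e-12) and was 3.00-fold higher in Neu+NETS than in Neu (adjusted p = 8e-13). Its Neu+NETS value against CTR was log2 0.11 ± 0.061 (adjusted p = 0.14), which passed without CTR 1 (0.17) and in 3 of the 12 other settings.

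Atr (ENSMUSG00000032409, GRCm39 chr9:95739650-95833697, plus strand), the kinase that activates CHK1, moved the other way. It stood at 2.44, 2.61, 2.43 and 2.46 FPKM in CTR, 2.67, 2.70, 2.58 and 2.82 FPKM in Neu and 2.94, 3.25, 3.29 and 3.21 FPKM in Neu+NETS. The Neu libraries overlapped CTR at their lower end, and Neu+NETS lay above both. Atr rose 1.13-fold in Neu (log2 0.17 ± 0.041, adjusted p = 0.0019) and 1.23-fold in Neu+NETS (log2 0.30 ± 0.041, adjusted p = 1.1e-05); the Neu call was lost with the 3 limma fits, such as that on log2(FPKM + 1) (log2 0.08, adjusted p = 0.10).

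Atm, the kinase of double-strand breaks, stood at 8.12, 7.81, 7.43 and 7.86 FPKM in CTR, 5.41, 5.72, 5.22 and 5.75 FPKM in Neu and 9.13, 9.31, 9.36 and 9.83 FPKM in Neu+NETS. It fell 1.36-fold in Neu (log2 -0.44 ± 0.037, adjusted p = 2.4e-08) and rose 1.16-fold in Neu+NETS (log2 0.22 ± 0.037, adjusted p = 0.00011), with 3 separate ranges. Chek2, its substrate, stood at 11.5, 11.4, 10.9 and 10.8 FPKM in CTR, 8.21, 8.47, 8.36 and 9.36 FPKM in Neu and 9.99, 10.8, 10.3 and 11.5 FPKM in Neu+NETS. Chek2 fell 1.25-fold in Neu (adjusted p = 9e-05), and its Neu+NETS value was log2 -0.12 ± 0.055 (adjusted p = 0.095), which passed without Neu+NETS 4 (-0.15).

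The RPA trimer showed unequal subunits. Rpa2, the subunit phosphorylated at stalled forks, stood at 26.7, 27.4, 26.6 and 26.2 FPKM in CTR, 10.5, 10.4, 11.1 and 11.3 FPKM in Neu and 36.8, 33.4, 34.8 and 34.6 FPKM in Neu+NETS. It fell 2.38-fold in Neu (log2 -1.25 ± 0.040, adjusted p = 1.1e-13), rose 1.26-fold in Neu+NETS (log2 0.33 ± 0.039, adjusted p = 1.9e-06) and was 3.00-fold higher in Neu+NETS than in Neu. Its 3 groups did not overlap.

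Rpa1, the large subunit that grips the strand, stood at 46.3, 48.3, 47.8 and 47.6 FPKM in CTR, 27.0, 28.0, 28.1 and 28.7 FPKM in Neu and 54.1, 55.6, 54.7 and 58.0 FPKM in Neu+NETS. It fell 1.64-fold in Neu (log2 -0.71 ± 0.027, adjusted p = 9.6e-13) and rose 1.13-fold in Neu+NETS (log2 0.18 ± 0.027, adjusted p = 3.2e-05). Rpa3, the small subunit, passed the test in no comparison. It stood at 12.4, 9.94, 8.64 and 10.4 FPKM in CTR, 9.95, 9.92, 9.52 and 8.46 FPKM in Neu and 10.8, 11.2, 12.1 and 12.5 FPKM in Neu+NETS. The CTR range held all but the lowest Neu and the highest Neu+NETS library, and Neu+NETS lay above Neu (log2 0.19 ± 0.104, adjusted p = 0.12), a difference that passed in 5 of the 12 other settings.

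Pcna (GRCm39 chr2:132091082-132095234, minus strand), the sliding clamp of replication and repair, was the most abundant of the set. It stood at 162, 170, 159 and 165 FPKM in CTR, 112, 118, 117 and 117 FPKM in Neu and 201, 219, 210 and 201 FPKM in Neu+NETS, with 3 separate ranges. Pcna fell 1.36-fold in Neu (log2 -0.44 ± 0.032, adjusted p = 3.3e-09) and rose 1.23-fold in Neu+NETS (log2 0.30 ± 0.032, adjusted p = 8.3e-07). A processed copy listed in the table, Pcna-ps2, stood at 2.63 to 6.62 FPKM across the 12 libraries, so the reads it may share are few beside those of Pcna.

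**Figure D3:**
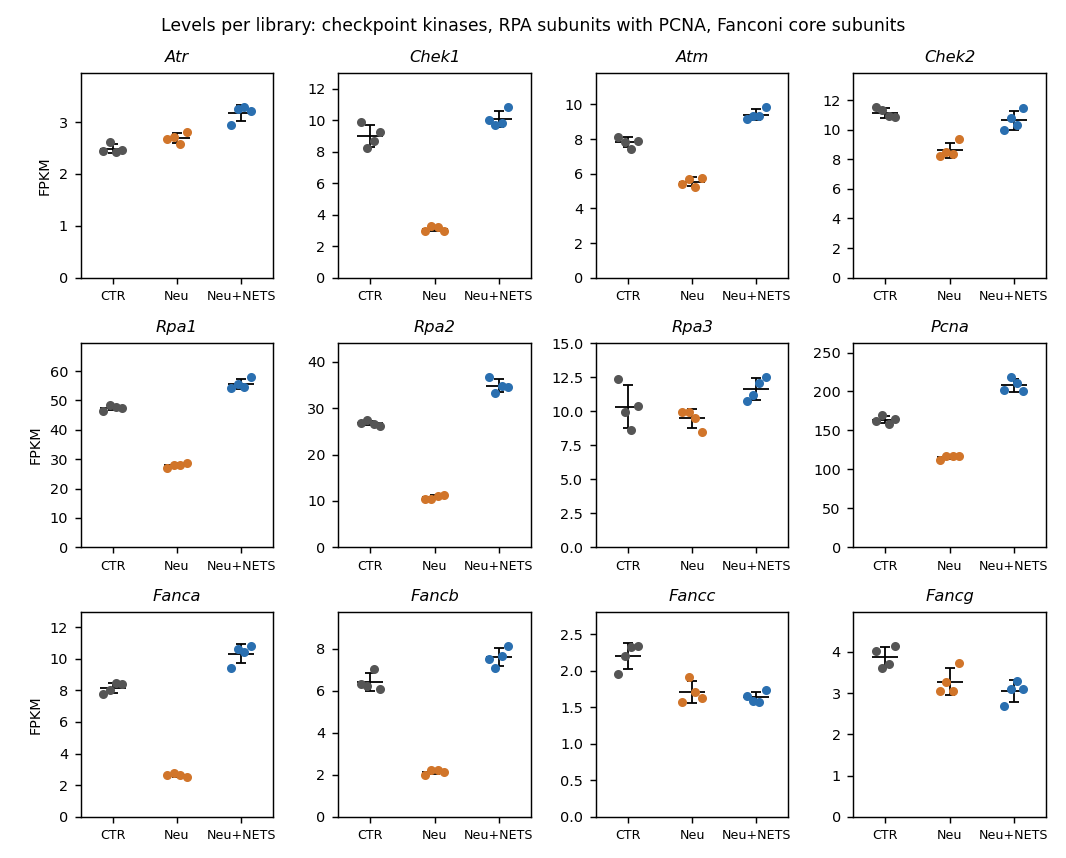
FPKM of 12 of the genes in each library (points, n = 4 per group) with the group mean and SD (bars); the vertical axes start at 0. Chek1, Rpa2, Fanca and Fancb drop in Neu and return to or past the CTR level in Neu+NETS, Atr climbs across the 3 groups, Rpa3 overlaps CTR in both co-cultures, and Fancc and Fancg have their lowest means in Neu+NETS.

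All 6 genes of base excision, strand-break and mismatch repair fell in Neu. Fen1, the flap endonuclease of lagging-strand synthesis and long-patch repair, stood at 63.5, 61.6, 61.7 and 64.9 FPKM in CTR, 23.6, 23.3, 23.6 and 25.5 FPKM in Neu and 66.9, 65.7, 68.9 and 68.7 FPKM in Neu+NETS. It fell 2.52-fold in Neu (log2 -1.34 ± 0.032, adjusted p = 2.9e-15). In Neu+NETS its libraries lay just above CTR, with log2 0.05 ± 0.031 (adjusted p = 0.18), a difference that passed in 5 of the 12 other settings, such as DESeq2 (0.08).

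Ung, which removes uracil from DNA, stood at 5.20, 5.24, 5.65 and 6.51 FPKM in CTR, 2.18, 2.01, 2.21 and 2.41 FPKM in Neu and 7.29, 7.09, 7.05 and 7.53 FPKM in Neu+NETS. It fell 2.46-fold in Neu (log2 -1.30 ± 0.072, adjusted p = 1e-10) and rose 1.24-fold in Neu+NETS (log2 0.31 ± 0.069, adjusted p = 0.0015). Msh6, which finds mismatches, stood at 29.6, 31.7, 30.5 and 29.3 FPKM in CTR, 23.2, 21.4, 21.6 and 21.5 FPKM in Neu and 40.0, 41.4, 39.2 and 41 FPKM in Neu+NETS. Msh6 fell 1.33-fold in Neu (adjusted p = 3.1e-08) and rose 1.29-fold in Neu+NETS (log2 0.37 ± 0.035, adjusted p = 2e-07); both genes kept 3 separate ranges.

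Lig1, the ligase that seals Okazaki fragments, stood at 38.6, 39.1, 42.5 and 39.6 FPKM in CTR, 23.7, 22.9, 21.5 and 23.0 FPKM in Neu and 36.5, 39.6, 36.0 and 38.0 FPKM in Neu+NETS. It fell 1.69-fold in Neu (log2 -0.75 ± 0.038, adjusted p = 2.7e-11) and by log2 -0.14 ± 0.037 in Neu+NETS (adjusted p = 0.0054), where its libraries overlapped CTR. Parp1, the sensor of nicked strands, fell 1.31-fold in Neu, from 59.9 ± 1.92 to 44.1 ± 1.68 FPKM (SD, n = 4, edgeR adjusted p = 1.9e-08), and by log2 -0.12 ± 0.032 in Neu+NETS (adjusted p = 0.0058). The Neu+NETS calls of Lig1 (-0.08) and Parp1 (-0.06) were lost when libraries were scaled by their totals alone and with the 3 limma fits. Xrcc1, the scaffold of strand-break repair, fell 1.15-fold in Neu, from 10.1 ± 0.493 to 8.48 ± 0.131 FPKM (SD, n = 4, edgeR adjusted p = 0.0007).

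Sorted by their calls, the 38 genes made a few patterns. There were 13 that fell in Neu, rose in Neu+NETS and were higher in Neu+NETS than in Neu: Rad51ap1, Xrcc2, Exo1, Blm, Fanca, Fancb, Fancm, Atm, Rpa1, Rpa2, Pcna, Ung and Msh6; of all genes tested, 9.37% fell in Neu and rose in Neu+NETS. Another 14, among them Brca1, Bard1, Palb2, Rad54l, Brip1, Chek1 and Fen1, fell in Neu and were higher in Neu+NETS than in Neu without a call in Neu+NETS against CTR, as 10.0% of all genes did. There were 6 that fell in both co-cultures (Brca2, Fancd2, Parp1, Lig1, Fancc and Fanci), as did 7.44% of all genes, and 1 (Atr) that rose in both, as did 6.93%. No gene of the 38 rose in Neu and fell in Neu+NETS, as did 8.23% of all genes. Fancg was called lower in Neu+NETS than in CTR and in Neu, and Rad51c, Nbn and Rpa3 had no call.

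Around these 38 genes, 134 other genes of repair and replication were looked up in 9 lists. In Neu, 95 of them fell (70.9%, beside 27.9% of all genes tested) and 15 rose (11.2%, beside 26.1%), with a median of log2 -0.43. In Neu+NETS against CTR, 50 rose (37.3%, beside 21.6%) and 28 fell (20.9%, near the 23.7% of all genes), with a median of 0.07. In Neu+NETS against Neu, 88 were higher (65.7%, beside 29.4%) and 17 lower (12.7%, beside 33.1%), with a median of 0.50. The fall in Neu covered all 20 genes of the clamp loader and replication polymerases and all 19 other genes of checkpoint and fork protection. Pola1, the catalytic subunit of polymerase alpha, went from 9.92 ± 0.229 FPKM in CTR to 4.48 ± 0.278 in Neu and 11 ± 0.396 in Neu+NETS (SD, n = 4), a fall in Neu of log2 -1.09 (edgeR adjusted p = 9.7e-13). Topbp1, the activator of ATR, went from 19.5 ± 0.227 to 8.97 ± 0.517 FPKM in Neu (SD, n = 4, edgeR log2 -1.06, adjusted p = 1.1e-13) and stood at 19.7 ± 0.707 FPKM in Neu+NETS.

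Cdc25a, the phosphatase that CHK1 directs to destruction, went from 7.10 ± 0.225 FPKM in CTR to 2.35 ± 0.148 in Neu (SD, n = 4, edgeR log2 -1.54, adjusted p = 1.3e-13). H2ax, the histone that ATM and ATR phosphorylate at breaks, fell in both co-cultures, from 112 ± 5.87 FPKM to 43.0 ± 5.27 in Neu (log2 -1.32, adjusted p = 1.4e-11) and 66.4 ± 2.6 in Neu+NETS (log2 -0.80, adjusted p = 1.3e-08). Zranb3, a fork-remodelling translocase, fell mainly with stimulated neutrophils: it stood at 10.4 ± 0.125 FPKM in CTR, 9.03 ± 0.671 in Neu and 4.23 ± 0.0688 in Neu+NETS, log2 -1.34 in Neu+NETS against CTR (adjusted p = 1.3e-13) and -1.20 against Neu (adjusted p = 1.2e-13). Mdc1 and Timeless, a reader of H2AX and a fork protector, fell in both co-cultures. In Neu the fall was log2 -0.61 for Mdc1 and -0.64 for Timeless, and in Neu+NETS it was smaller, log2 -0.49 for each.

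In other lists the calls were more mixed. Other homologous recombination genes held 16 that fell and 2 that rose of 23 in Neu (69.6% and 8.7%, beside 27.9% and 26.1% of all genes). In Neu+NETS against CTR, 10 rose and 4 fell (43.5% and 17.4%, beside 21.6% and 23.7% of all genes). Dna2, a resection nuclease, stood at 10 ± 0.383 FPKM in CTR, 4.55 ± 0.158 in Neu and 11.3 ± 0.243 in Neu+NETS (SD, n = 4, edgeR log2 -1.08 in Neu, adjusted p = 9.2e-13). Rad51b, a recombination gene, went down with stimulated neutrophils, from 3.08 ± 0.351 FPKM in CTR to 2.37 ± 0.14 in Neu and 1.53 ± 0.191 in Neu+NETS (SD, n = 4, edgeR log2 -1.06 in Neu+NETS, adjusted p = 4.4e-07). Other Fanconi genes fell in 8 of 9 cases in Neu, Usp1, which removes the ubiquitin of FANCD2, from 45.8 ± 0.703 to 23.8 ± 0.578 FPKM (SD, n = 4, edgeR adjusted p = 2.4e-13).

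End joining, excision repair and translesion synthesis held genes of both directions in Neu. End joining held 6 genes that fell and 3 that rose of 13: Prkdc, the catalytic subunit of DNA-PK, fell from 4.32 ± 0.214 to 2.21 ± 0.118 FPKM (SD, n = 4, edgeR adjusted p = 3.1e-11), while Polm, a gap-filling polymerase, rose by log2 0.66 (adjusted p = 1.4e-07). Nucleotide excision repair held 8 that fell and 4 that rose of 16, Ercc8 falling from 1.77 ± 0.16 to 0.539 ± 0.0567 FPKM (SD, n = 4, edgeR adjusted p = 1.6e-10). Other base excision repair held 10 that fell and 3 that rose of 18, with Apex1, the abasic site endonuclease, falling by log2 -1.06 and Neil2, a glycosylase, rising by log2 1.13 (adjusted p = 1.4e-11 and 1.4e-09). Translesion synthesis held 3 in each direction of 10, Polk rising by log2 0.87 (edgeR adjusted p = 1.9e-09), while other mismatch repair held 5 that fell and 0 that rose of 6. Over all genes tested, 27.9% fell and 26.1% rose in Neu. Translesion synthesis, with 30% in each direction, was near these shares. So were the rises in end joining (23.1%) and nucleotide excision repair (25%), where 46.2% and 50% fell. For other base excision repair, 55.6% fell and 16.7% rose.

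In Neu+NETS against CTR these lists gave 1 riser and 2 fallers of 9 for other Fanconi genes, 4 and 3 of 13 for end joining, 3 and 0 of 6 for other mismatch repair, 6 and 2 of 16 for nucleotide excision repair and 6 and 5 of 18 for other base excision repair. Checkpoint and fork protection gave 8 and 7 of 19, the clamp loader and polymerases 8 and 4 of 20, and translesion synthesis 4 and 1 of 10. Beside these, 21.6% of all genes tested rose and 23.7% fell. The shares that rose ran from 11.1% (other Fanconi genes) to 50% (other mismatch repair). The shares that fell ran from 0% (other mismatch repair) to 36.8% (checkpoint and fork protection). Prim1, the primase, rose from 14.1 ± 0.638 to 20.4 ± 0.857 FPKM (SD, n = 4, edgeR adjusted p = 1.8e-07), and Rfc5, a clamp loader subunit, fell from 29.0 ± 0.366 to 23.0 ± 0.747 FPKM (SD, n = 4, edgeR adjusted p = 5.9e-08). Msh3, which finds small loops left by replication, rose by log2 0.56 (adjusted p = 6.8e-06).

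**Figure D4:**
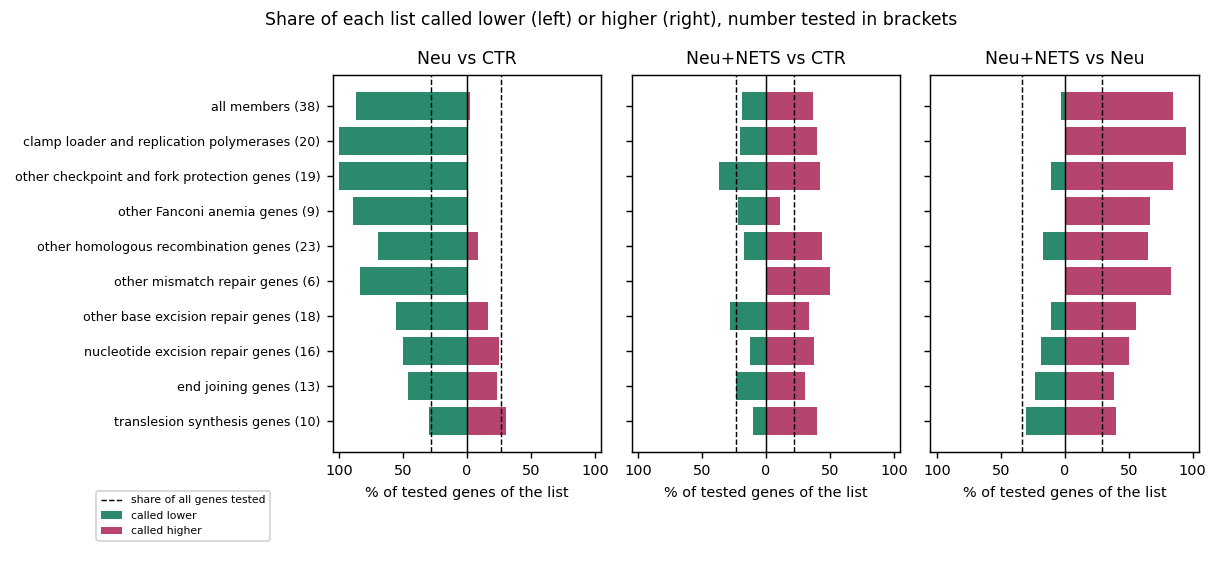
Share of the tested genes of each list that fell (green, to the left) or rose (purple, to the right) in each of the 3 comparisons, in percent; the top bar is the 38 genes, and dashed lines mark the same shares over all 16387 genes. In Neu the bars of the 38 genes, the clamp loader and polymerases and the checkpoint genes lie almost wholly to the left, while translesion synthesis has 3 of its 10 genes on each side.

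Markers of replicating cells fell with the set in Neu, and in Neu+NETS they moved in both directions against CTR. Of 14 replication and division markers, 13 fell and 1 rose in Neu (92.9% and 7.14%, beside 27.9% and 26.1% of all genes), with a median of log2 -0.63. Their summed level was 710 to 730 FPKM in CTR, 438 to 464 FPKM in Neu and 691 to 717 FPKM in Neu+NETS. Mcm2, a subunit of the replicative helicase, went from 39.6 ± 0.774 FPKM in CTR to 12.0 ± 0.223 in Neu and 40.6 ± 1.65 in Neu+NETS (SD, n = 4, edgeR log2 -1.66 in Neu, adjusted p = 8.1e-17). In Neu+NETS against CTR, 3 of the 14 rose (21.4%, beside 21.6% of all genes) and 6 fell (42.9%, beside 23.7%). The risers were Ccne1 (31.1 ± 0.647 to 50.4 ± 0.68 FPKM), Ccne2 (9.33 ± 0.656 to 17.6 ± 1.59 FPKM) and Cdc6 (14.3 ± 0.279 to 21.1 ± 0.674 FPKM). Mki67, expressed in cycling cells, fell by log2 -0.42 (edgeR adjusted p = 4.1e-09). Cdt1 (log2 -0.29), Ccna2, Ccnb1, Plk1 and Aurkb also fell. Top2a, Cdk1, Bub1, Mcm2 and Mcm5 had no call. The part of a changed number of replicating cells in the changes of the repair genes was not tested.

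Genes of the E2F and pocket protein family, 16 in the table, held 12 that fell and 2 that rose in Neu, and 6 that rose and 5 that fell in Neu+NETS against CTR. E2f1, which drives S-phase genes, stood at 35.7 ± 1.27 FPKM in CTR, 21.7 ± 1.59 in Neu and 46.9 ± 2.09 in Neu+NETS, a fall of log2 -0.66 (edgeR adjusted p = 9.1e-10) and a rise of log2 0.34 (edgeR adjusted p = 4.4e-06; SD, n = 4). Of 13 p53 targets of the damage response, 9 rose and 3 fell in Neu, and 6 rose and 2 fell in Neu+NETS against CTR. Beside both lists, 26.1% of all genes tested rose and 27.9% fell in Neu, and 21.6% rose and 23.7% fell in Neu+NETS. Cdkn1a, the p21 inhibitor of cyclin-dependent kinases, stood at 15.1 ± 0.796 FPKM in CTR, 109 ± 2.47 in Neu and 24.2 ± 1.36 in Neu+NETS (SD, n = 4), a rise of 7.5-fold in Neu (edgeR adjusted p = 2.6e-17) and 1.55-fold in Neu+NETS (edgeR adjusted p = 4.3e-09). Aen, a p53-induced nuclease, went against its list in Neu, from 4.61 ± 0.359 to 1.14 ± 0.0493 FPKM (SD, n = 4, edgeR adjusted p = 3.8e-13). The link of these changes to the repair genes was not tested.

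RNA of the added cells could be present in the co-culture libraries. The 12 neutrophil markers in the table summed to 6.08 to 7.40 FPKM in CTR, 14.9 to 15.8 FPKM in Neu and 0.959 to 1.43 FPKM in Neu+NETS. Of the 7 that could be tested, 4 rose in Neu (Il1r2, Lcn2, Mmp9 and Prtn3), none fell, and 5 fell in Neu+NETS against CTR. Most of the higher sum in Neu was Il1r2, a decoy receptor of interleukin 1, which went from 0.32 to 8.03 FPKM. Csf3r made up most of the CTR sum and most of its drop in Neu+NETS, at 5.15 FPKM in CTR, 4.15 in Neu and 0.691 in Neu+NETS. As CTR held BV2 cells alone, the sum does not measure neutrophil RNA alone. Of the granule protein genes, Mpo (0.00219 FPKM), Elane (0.0969), Camp (0.00459), Ngp (0.0163) and Mmp8 (0.126) were near 0 in Neu. These genes were at 0 in all 4 Neu+NETS libraries, and Ngp was at 0 in all CTR libraries. Prtn3, Lcn2 and Mmp9, also of granules, stood at 0.0645, 0.223 and 0.548 FPKM in CTR and 0.399, 0.950 and 1.46 FPKM in Neu. In Neu+NETS they stood at 0.0462, 0.0908 and 0.215 FPKM. S100a8, among the most abundant transcripts of neutrophils, stood at 0.257 FPKM in CTR, 0.189 in Neu and 0.0547 in Neu+NETS. The 10 microglial and macrophage markers summed to 471 to 489 FPKM in CTR, 519 to 550 FPKM in Neu and 221 to 234 FPKM in Neu+NETS. In Neu, 4 rose and 3 fell (40% and 30%, beside 26.1% and 27.9% of all genes). All 10 fell in Neu+NETS against CTR, as did 23.7% of all genes. The part of either marker list in the changes of the repair genes was not tested.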

How the data were processed

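Polyadenylated RNA of 12 BV2 libraries (CTR, Neu and Neu+NETS, 4 each, grouped by the labels) was analysed from 1 table of 27487 genes. Per the file headers it holds, for each library, deposited estimated counts, which are whole numbers with unequal totals, and FPKM values that the authors calculated. HISAT2 2.0.4, StringTie 1.3.4d, edgeR and build GRCm39 are named in the submitters' processing notes, without roles; for annotation and strand setting nothing was stated. Low estimated counts favour multiples of 4 (33.0% of values from 2 to 41, where an even spread gives 25%), so a fragment may stand for about 4 units and the totals (53512190 to 68316549) may overstate fragments; 0 columns were left unmatched.

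Genes were kept by filterByExpr (16387) and scaled by TMM (factors 0.970 to 1.03); all 12 libraries entered 1 quasi-likelihood fit with a mean per group (edgeR 4.0.16, R 4.3.3; biological coefficient of variation 12.5%). Tests were two-sided, with Benjamini-Hochberg adjustment over all genes and calls at 0.05; SE is the log2 fold change over the square root of F. The fit was tested on simulated data. Alternatives were DESeq2 1.42.0, limma 3.58.1 on log2(FPKM + 1 or 0.1), other scalings and filters, counts divided by 4, a replicate block, 8-library fits and leaving out each library. With estimated counts divided by 4, as units per fragment, replicate libraries differed beyond sampling noise (chi-square per degree of freedom 1.87 to 4.47 over 18 pairs). The size of these values rests on that assumed divisor.

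The 38 genes and all lists were chosen with earlier results of these data known. Named with values in every library were, per role and comparison, up to 3 called genes of largest change and genes against the trend, plus Rad51c and Rpa3, added after their values were seen; other lists give up to 3 or 4 called genes of smallest adjusted p, of which those named, and Fance, Fancl, Nbn, Parp1, Rad54b, Xrcc1 and Xrcc3 as group means, were selected after their values were seen. Promoter windows are RefSeq's, on GRCm38.p6, a build other than that of the table.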

Additional observations from a re-analysis of the deposited data

Results flagged for a closer look

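In 8 of 114 sets of 4 libraries, a library stood far from the other 3 relative to the range, which chance gives in about 1 in 20 sets. Rad51ap1 stood at 9.089 FPKM in CTR 4, beside 9.491 to 9.569 in the other CTR libraries. Rad54b stood at 2.082 FPKM in CTR 3, beside 2.253 to 2.272. Fance stood at 7.177 FPKM in Neu+NETS 3, beside 7.587 to 7.633. Fancd2 stood at 6.529 FPKM in Neu 4, beside 6.062 to 6.123, and at 6.909 FPKM in Neu+NETS 2, beside 7.893 to 8.036. Brip1 stood at 5.55 FPKM in that same Neu+NETS 2 library, beside 6.611 to 6.717. Fen1 stood at 25.49 FPKM in Neu 4, beside 23.3 to 23.57, and Msh6 at 23.16 FPKM in Neu 1, beside 21.44 to 21.64. For Brip1 the other 3 Neu+NETS libraries lay above all CTR libraries and this library below all of them; without it the Neu+NETS value was log2 0.055 and still not called.

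The co-cultures differed in direction against CTR for 13 of the 38 genes, which fell in Neu, rose in Neu+NETS and differed between Neu+NETS and Neu by the direct test.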

How the results depend on the processing

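The 33 falls in Neu numbered 32 to 35 under every alternative run, and the 32 genes higher in Neu+NETS than in Neu numbered 30 to 35. The 1 rise in Neu (Atr) became 0 under the 3 limma fits and was 1 when any library was left out. The 14 rises in Neu+NETS against CTR numbered 13 to 18, and the 7 falls became 4 with limma on log2(FPKM + 1) or log2(FPKM + 0.1) and with library totals, and 3 with limma without a filter, so that the balance of 14 to 7 was 18 to 4 with both limma pseudocounts and with totals; leaving out a library gave 6 to 8. The 1 gene lower in Neu+NETS than in Neu (Fancg) became 0 with DESeq2, the limma fits, median-of-ratios scaling, library totals, no filter and the 8-library fit, and 2 with upper-quartile scaling, a mean count of at least 100 or counts divided by 4; leaving out a library gave 0 to 1. For the other 134 genes, 15 rises in Neu became 9 with limma on log2(FPKM + 0.1) and 8 without its filter, beside 10 with log2(FPKM + 1), and 17 genes lower in Neu+NETS than in Neu became 11 with either limma pseudocount and 10 without its filter. The limma fits moved the median of all genes between Neu+NETS and Neu from -0.05 to as much as 0.12, and the share of rises among all calls from 47.1% to 59.6% there, from 48.3% to 39.0% in Neu and from 47.6% to 58.3% in Neu+NETS against CTR. The cause of these shifts was not tested.

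Signs turned only for genes with no call. In Neu+NETS against CTR, Fance became 0.021 with DESeq2, 0.037 with limma on log2(FPKM + 1) with or without a filter, 0.042 with log2(FPKM + 0.1), 0.014 with median-of-ratios scaling and 0.047 with totals, Brip1 likewise 0.021, 0.031, 0.035, 0.014 and 0.047, and Palb2 0.012, 0.016 and 0.021 with limma and totals. With a library left out, the Neu+NETS values against CTR ran from -0.03 to 0.038 for Fance, -0.0301 to 0.0549 for Brip1, -0.0859 to 0.0181 for Palb2 and -0.0791 to 0.218 for Rad51c, the Neu value of Rpa3 from -0.147 to 0.027, and the difference of Rad51c between Neu+NETS and Neu from -0.263 to 0.0342. Between Neu+NETS and Neu, Rad51c became 0.013, 0.011 and 0.012 with limma and totals.

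Replicate numbers of different groups did not deviate together over all genes tested (12 correlations from -0.0546 to 0.0426, 0 libraries best with their own number). Such correlations cannot exclude a shared origin that touched only some genes. With a replicate block, 33 genes fell and 1 rose in Neu, 14 rose and 7 fell in Neu+NETS, and 32 were higher and 0 lower in Neu+NETS than in Neu. Over all single genes and alternatives, 896, 835 and 869 values in Neu, in Neu+NETS and between them kept direction and side of the threshold. In the same order, 1, 22 and 6 values turned sign, 9, 30 and 18 gained a call and 6, 25 and 19 lost one. Values of Neu+NETS against CTR thus changed most often. The lowest count was 289 units. The SE of the Neu change was largest for Rad51c (0.161) and Fancl (0.115) and smallest for Rpa1 (0.027), but it did not follow FPKM closely. It was 0.041 for Atr at 2.48 FPKM in CTR and 0.104 for Rpa3 at 10.3 FPKM in CTR.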
